A study of Arabidopsis thaliana with 27 samples.

Results

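The step from heart to bent seeds at a mean of 27 °C was followed by RNA sequencing of whole seeds of Arabidopsis thaliana Col-0, the common laboratory accession. It was taken from the labels as the 3 heart libraries and the 3 bent libraries of the 27 °C treatment, 6 of the 27 libraries in the series. Heart and bent name the shape of the embryo, which has just formed its cotyledons at the heart stage and fills a large part of the seed at the bent stage. The plants were wild type and were kept at 28 °C by day and 26 °C by night from flowering on, which the study calls severe heat stress. The 12 heart and bent libraries of seeds grown at 23 °C (24 °C by day, 22 °C by night, the control) and 25 °C (26 °C by day, 24 °C by night, mild stress) served for comparison, with 3 libraries in each group. The 9 libraries of mature seeds entered the shared fit only. Each library pooled at least 50 entire seeds, per the labels, so embryo, endosperm and seed coat were measured together. In such bulk samples fewer cells of a type and less RNA per cell cannot be told apart.

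An Arabidopsis seed holds the embryo, the endosperm that feeds it and a seed coat of maternal origin. Between the heart and the bent stage the endosperm is consumed, the embryo grows and starts to fill with storage protein and oil, and the seed coat lays down pigment, mucilage and suberin, a polyester of fatty acids and phenolics that seals cell walls. The filling phase is known to be switched on by the transcription factors LEC1, LEC2, FUS3 and ABI3, which act on promoters that often hold an RY element.

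The 6 libraries held between 17227267 and 18767427 counts each, so depth hardly differed. The 20 most abundant genes took 4.39 to 6.84% of the counts of a library and the organelle loci 0.010 to 0.015%. Across genes, log2 values of replicates correlated with r = 0.9896 to 0.9921 in heart and 0.9859 to 0.9905 in bent seeds (chi-square per gene 3.02 to 14, above sampling noise for each pair). Replicate 2 stood between the stages more often than the others. The heart library nearest to the bent libraries was replicate 2 in 49.5% of the genes that rose and in 57.5% of those that fell, and the bent library nearest to the heart libraries was replicate 2 in 56.0% and 43.2%. At 23 °C heart replicate 1 stood apart, where CRU3, a storage protein gene, reached 26428 normalised counts while its replicates had 353 and 171, and bent replicate 3 had high values of many genes, such as 15593 counts of GATL5 against 7110 and 8368. Some comparisons that rest on these libraries are given below with and without them, and the others with them only.

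The first question was which transcripts changed as the seed passed from heart to bent under heat. Of 21438 genes tested, 4433 (20.7%) were higher and 4770 (22.3%) lower in bent than in heart seeds at an adjusted p under 0.05. Most changes were small: 1551 genes rose and 2278 fell by at least 1 on the log2 scale, and 346 rose and 701 fell by at least 3. Among these called genes the replicates of the stages did not overlap in 98.9% of those that rose and 99.2% of those that fell. The calls rest on the same libraries and the share was not computed over all genes tested. It therefore only describes the called genes and adds no support to the calls. The balance depended on the scaling, since scaling by library totals, rather than by median-of-ratios factors, gave 3143 higher and 5304 lower genes. Below, values per library are normalised counts in the order of replicates 1, 2 and 3, fold differences are ratios of the group means, and log2 fold changes are bent against heart with their standard error (SE).

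Storage protein genes had the highest medians of the 21 lists. Of the 8 storage globulins tested, which include the 12S cruciferins that make up most of the protein reserve, 7 rose and none fell, with a median log2 fold change of 4.22 against -0.01 for all genes tested. CRU3 (cruciferin 3, AT4G28520) had 1557, 2786 and 1551 counts in heart seeds and 51036, 22140 and 42504 in bent seeds. The lowest bent library lay far above the highest heart library, a 19.6-fold difference of the means (log2 4.29, SE 0.88, adjusted p = 6.66e-06). The vicilin-like PAP85 had 179, 292 and 188 counts in heart and 6091, 3015 and 5133 in bent seeds (log2 4.43, SE 0.99, adjusted p = 4.28e-05). The cupin gene AT1G03890, from 22.9, 49.9 and 19.3 to 1281, 600 and 1151 counts, had the largest change of the list (log2 5.04, SE 1.12, adjusted p = 3.75e-05). The globulin with the smallest rise was AT4G36700, with 1697 to 1970 counts in heart and 8257 to 10490 in bent seeds (log2 2.36). CRA1 (cruciferin 1) was given no p in the main test because 1 of its values among the 27 libraries was an outlier. Its counts were 2854, 4503 and 3042 in heart and 80395, 43560 and 67257 in bent seeds, and edgeR gave it an adjusted p of 0.00314.

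The 2S albumins, small sulphur-rich storage proteins, all rose (5 of 5, median log2 4.32). SESA1 to SESA4 lie next to one another on chromosome 4, between positions 13607329 and 13614283 of the TAIR10.1 assembly. SESA3 (AT4G27160) had 1332, 2273 and 1294 counts in heart and 54949, 24767 and 43483 counts in bent seeds, a 25.1-fold difference (log2 4.65, SE 0.91, adjusted p = 2.03e-06). Its neighbours SESA2 and SESA4 moved with it, from 991, 1661 and 1012 to 31757, 15435 and 25798 counts for SESA2, and from 389, 698 and 402 to 16976, 7616 and 14186 for SESA4 (log2 4.70, the largest of the 5). SESA5, on chromosome 5, rose least (log2 3.90). In each of these genes heart replicate 2 was the highest heart library and bent replicate 2 the lowest bent library, without overlap. Together the globulins held 0.0541% of all counts in heart and 0.814% in bent seeds, and the 2S albumins 0.0245% and 0.521% (exact permutation test, p = 0.1 for both, the smallest that 3 against 3 libraries allow).

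The promoters of these genes are shown because RY elements, CATGCA on either strand, are where B3-type maturation factors such as FUS3 and ABI3 are known to bind. Windows of 250 bases upstream of the RefSeq gene start (TAIR10.1) were searched on both strands for CATGCA, for the G-box CACGTG bound by bZIP factors, and for the AC elements bound by MYB factors, namely ACCTACC with its variants ACCAACC and also ACCTAAC or else ACCAAAC, and overlapping matches were all counted. The windows of SESA3 (chr4:13611546-13611795, plus strand), of the oleosin gene OLEO1 (chr4:12900180-12900429, plus strand) and, for contrast, of the suberin gene ASFT (chr5:16431054-16431303, plus strand) read 5′ to 3′ as follows, with matches in capitals.
SESA3: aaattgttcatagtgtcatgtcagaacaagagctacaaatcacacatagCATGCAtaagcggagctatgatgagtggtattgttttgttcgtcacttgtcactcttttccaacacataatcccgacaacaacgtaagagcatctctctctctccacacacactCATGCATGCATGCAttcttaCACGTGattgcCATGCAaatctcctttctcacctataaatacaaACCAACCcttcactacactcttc
OLEO1: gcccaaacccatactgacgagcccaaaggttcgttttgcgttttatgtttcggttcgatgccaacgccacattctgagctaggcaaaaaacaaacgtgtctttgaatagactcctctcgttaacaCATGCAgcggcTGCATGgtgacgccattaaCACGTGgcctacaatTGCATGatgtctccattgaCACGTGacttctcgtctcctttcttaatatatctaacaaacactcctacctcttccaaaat
ASFT: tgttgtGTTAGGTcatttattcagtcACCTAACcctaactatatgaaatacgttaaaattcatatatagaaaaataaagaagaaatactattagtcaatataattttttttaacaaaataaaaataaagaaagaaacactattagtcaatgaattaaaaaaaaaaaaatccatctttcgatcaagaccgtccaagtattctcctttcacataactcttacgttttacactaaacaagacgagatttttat
SESA3 held 7 RY matches, 5 of them overlapping in a run of repeats, with 1 G-box and 1 AC element, and OLEO1 held 3 RY matches and 2 G-boxes. ASFT had no RY or G-box match and 2 AC elements. An RY match was present in 6 of 8 globulin, 5 of 5 albumin and 10 of 10 oil body windows but in 1 of 15 suberin windows, against 8.4% of the 27390 windows of all genes. AC elements were found in 2 of 15 suberin windows (13.3%) and in 13.7% of all windows. A match is a run of letters and not evidence of binding.

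Genes for the oil body, the droplet in which seed oil is stored, rose as well. Of 10 genes, 9 rose and none fell (median log2 3.89), and the list held 0.0281% of the counts in heart and 0.346% in bent seeds (exact permutation p = 0.1). OLEO1, an oleosin that coats the droplet, had 744, 1169 and 730 counts in heart and 24376, 12491 and 19035 in bent seeds (log2 4.40, SE 0.72, adjusted p = 1.21e-08). ATS1 (AT4G26740), a caleosin with peroxygenase activity, went from 83.4, 175 and 81.3 to 3449, 1650 and 2772 counts (log2 4.53, SE 1.02, adjusted p = 4.64e-05). OLEO3 started higher and rose less, from 1307, 1661 and 1408 to 8574, 6766 and 7085 counts (log2 2.36). The steroleosin HSD1 rose from 115, 153 and 96.3 to 2850, 1393 and 2208 counts, but AT5G50700 is nearly identical, so its reads may be divided between the copies. The sum of the 2 copies was 18.8-fold higher in bent seeds. OLEO5 had no p for the same reason as CRA1, with 538 to 737 counts in heart and 7267 to 11399 in bent seeds (edgeR adjusted p = 3.69e-05).

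Enzymes that make fatty acids in the plastid rose together by small amounts. Of 18 genes, 16 rose and 1 fell, with a median log2 fold change of 0.77 and none above 1.19. BCCP2, a biotin carrier subunit of acetyl-CoA carboxylase, had 1946, 2167 and 1936 counts in heart and 4908, 4605 and 4249 in bent seeds (log2 1.19, SE 0.18, adjusted p = 6.59e-10). ACP1, an acyl carrier protein, rose from 2526, 3059 and 2541 to 6319, 6035 and 6067 counts (log2 1.18, SE 0.17), and FAB1, the condensing enzyme that extends the chain before export, from 3355, 3826 and 3357 to 7421, 6806 and 6844 (log2 1.00, SE 0.14). The replicates of these genes lay close together, unlike those of the storage protein genes. FATB, a thioesterase that releases saturated chains, fell from 2926 to 3140 counts in heart to 2400 to 2634 in bent seeds (log2 -0.29, adjusted p = 0.00452), and ACP4, a carrier of leaf tissue, had 787 to 877 and 773 to 864 counts and was not called.

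Genes that modify and assemble oil were less uniform, with 7 of 10 higher and 1 lower (median log2 0.66). FAE1, which elongates fatty acids to the very long chains typical of Brassicaceae seed oil, had 140, 175 and 132 counts in heart and 3025, 2092 and 2307 in bent seeds, a 16.6-fold difference (log2 4.05, SE 0.76, adjusted p = 8.22e-07). ROD1, which passes fatty acids between lipid classes, rose from 242, 211 and 220 to 734, 566 and 554 counts (log2 1.46, SE 0.12). The desaturase gene FAD3 rose from 1319, 1424 and 1301 to 3999, 2771 and 3451 counts (log2 1.34, SE 0.18). TAG1, which adds the last fatty acid to triacylglycerol, rose 2.06-fold, whereas PDAT, which does so by another route, fell from 486 to 530 to 291 to 375 counts (log2 -0.61, adjusted p = 6.76e-07).

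**Figure D1:**
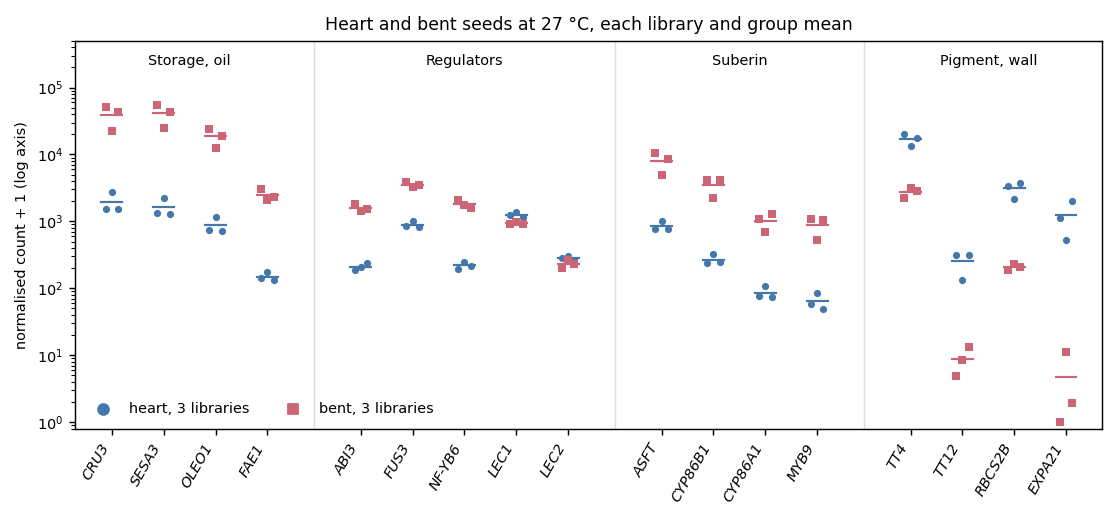
Normalised count plus 1 on a log axis for 17 genes in the 3 heart (blue circles) and 3 bent (red squares) libraries at 27 °C, with lines at the group means. Storage, oil and suberin genes lay higher in all 3 bent libraries, and LEC1 and LEC2 differed little. Those under the label of pigment and wall lay lower, which are TT4, TT12, EXPA21 and the Rubisco gene RBCS2B. Reads of RBCS2B may be split with its near-identical neighbours.

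Among the regulators of maturation, 12 of 19 rose and 3 fell (median log2 0.55). ABI3, a B3 factor of late maturation, had 189, 204 and 235 counts in heart and 1810, 1445 and 1537 in bent seeds (log2 2.93, SE 0.22, adjusted p = 1.05e-38). FUS3 rose from 840, 1025 and 814 to 3862, 3219 and 3511 counts (log2 1.98, SE 0.22, adjusted p = 3.44e-18). NF-YB6, also called L1L, a relative of LEC1, rose from 196, 247 and 214 to 2102, 1758 and 1609 counts, which was 8.33-fold and the largest change of the list (log2 3.06, SE 0.23). The bZIP genes EEL and bZIP67 and the AP2 gene ABI4 rose by 2.01, 1.96 and 2.63 on the log2 scale. WRI1, an activator of fatty acid synthesis genes, rose slightly, from 1750, 2081 and 1771 to 2636, 2994 and 2554 counts (log2 0.55, SE 0.20, adjusted p = 0.0159).

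The other LEC genes did not follow. LEC1, a subunit of a CCAAT-binding complex that acts early in embryogenesis, had 1232, 1364 and 1172 counts in heart and 926, 983 and 916 in bent seeds (log2 -0.42, SE 0.18, adjusted p = 0.0457), and this call was lost without any 1 of the 6 libraries and by edgeR (adjusted p = 0.0541). LEC2 had 287, 299 and 266 counts in heart and 197, 268 and 228 in bent seeds, with overlapping groups (adjusted p = 0.28). ABI5, a bZIP factor of seed dormancy and desiccation, fell from 277, 308 and 307 to 176, 155 and 179 counts (log2 -0.80, adjusted p = 1.98e-07). DOG1, a dormancy gene, had 23.8 to 30.4 counts in heart and 69.3 to 110 in bent seeds (log2 1.77, adjusted p = 0.0491).

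Late embryogenesis abundant (LEA) proteins protect the drying embryo, and 13 of 19 tested genes rose while 1 fell (median log2 1.96), although most stayed at low counts. The dehydrin gene AT2G21490 went from 20.2, 29.6 and 30.2 to 674, 315 and 591 counts (log2 4.30, SE 0.97, adjusted p = 5.43e-05), and PER1, a seed peroxiredoxin kept in this list, from 37.6, 71.9 and 36.9 to 1566, 757 and 1271 (log2 4.62, SE 1.01). LEA7 rose 14.4-fold. The classic late genes were near 0: EM1 had at most 1.83 counts in any of the 6 libraries and EM6 at most 3.83. RAB18, a dehydrin induced by abscisic acid, had 41.2 to 55.3 counts in heart and 35.6 to 59.8 in bent seeds and was not called. M17 fell (log2 -1.21, adjusted p = 0.0121). Outside the lists, TIP3;1, a water channel of the protein storage vacuole, rose from 24.7, 68.5 and 39.4 to 1725, 774 and 1339 counts (log2 4.85, SE 1.00).

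Suberin genes formed the second group with a large joint rise. Of 15 genes 13 rose and none fell (median log2 3.22), and the list went from 0.041% to 0.163% of all counts (exact permutation p = 0.1). The rise covered regulators, enzymes and transporters. MYB9, which activates suberin genes in the seed coat, had 57.7, 85.4 and 47.7 counts in heart and 1074, 521 and 1036 in bent seeds (log2 3.78, SE 0.50, adjusted p = 1.06e-12), and its partner MYB107 had 84.3, 112 and 81.3 against 756, 481 and 558 (log2 2.70, SE 0.31). CYP86A1, a fatty acid hydroxylase, rose from 75.1, 108 and 73.7 to 1067, 690 and 1268 counts (log2 3.56, SE 0.64), and CYP86B1, which acts on longer chains, from 238, 320 and 245 to 4128, 2249 and 4207 (log2 3.72, SE 0.33). In every one of these genes bent replicate 2 was the lowest bent library and still lay above all heart libraries.

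Enzymes that join the monomers rose likewise. ASFT, which links ferulic acid to hydroxylated fatty acids and whose promoter window is printed above, had 772, 1019 and 777 counts in heart and 10453, 4945 and 8496 in bent seeds, a 9.31-fold difference (log2 3.22, SE 0.42, adjusted p = 5.39e-13). FACT, a related transferase for caffeic acid, rose from 13.7, 15.2 and 12.6 to 311, 189 and 408 counts (log2 4.45, SE 1.00). GPAT5, which attaches the chains to glycerol, rose 10.7-fold, and the reductases FAR1, FAR4 and FAR5 rose 5.89-, 6.35- and 5.59-fold. Of the exporters, ABCG20 went from 311, 479 and 321 to 6817, 3108 and 6072 counts (log2 3.85, SE 0.63, adjusted p = 1.21e-08), and ABCG2 and ABCG6 rose 9.89- and 7.29-fold. The elongases KCS2 and KCS20, which also serve other waxes, were not called (log2 0.03 and 0.19).

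Large rises were also found outside the lists. KCS16, a very-long-chain elongase, had 50.4, 66.8 and 48.6 counts in heart and 1568, 761 and 1461 in bent seeds (log2 4.51, SE 0.64). The lipid-transfer protein gene AT1G05450 rose from 34.8, 36.4 and 32.7 to 1093, 628 and 1245 counts (log2 4.84, SE 0.73). The largest rise among the genes so named was that of the cupin gene AT3G04170, on chromosome 3 (1094621 to 1095665), which had 9.16, 11.8 and 5.03 counts in heart and 1466, 1036 and 2119 in bent seeds (log2 7.47, SE 1.41, adjusted p = 8.86e-07).

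The genes of the photosynthetic apparatus had medians near 0. Seeds are green at these stages, and the antenna proteins that bind chlorophyll were called higher in 3 and lower in 1 of 18 genes, with a median log2 of 0.15, and a fit of the 6 libraries alone called 9 of them higher. CAB3 rose from 4152, 3315 and 3155 to 8504, 7133 and 6735 counts (log2 1.07, SE 0.18), but CAB1, CAB2 and CAB3 are near-identical copies among which reads may be split. Their sum was 1.48-fold higher in bent seeds. Of 25 photosystem subunits and Rubisco genes 3 rose and 5 fell (median log2 0.11). With RBCS1A, the main small subunit of Rubisco, at 26078 to 28966 counts in heart and 28050 to 31878 in bent seeds and not called, the neighbouring copies RBCS1B, RBCS2B and RBCS3B on chromosome 5 fell. These copies are nearly identical, so their sum is the safer value: it was 15202, 10570 and 16315 counts in heart and 2709, 3003 and 2563 in bent seeds, 5.09-fold lower. RCA, which activates Rubisco, fell from 12831, 10269 and 14113 to 6265, 6091 and 5711 counts (log2 -1.04, adjusted p = 5.61e-10).

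Embryo patterning genes rose in 18 of 30 cases and fell in 1 (median log2 0.67). YAB3 and FIL, which mark the lower side of cotyledons and leaves, rose from 40.3, 42.3 and 36 to 324, 274 and 269 counts (log2 2.87, SE 0.17, adjusted p = 6.17e-59) and from 135, 199 and 177 to 855, 828 and 793 counts (log2 2.28, SE 0.24). KAN, a partner in the same polarity, rose 2.99-fold. The AP2 factors ANT, which promotes organ growth, and BBM, which acts in the root pole, rose 4.19- and 3.74-fold, and the root stem cell factors PLT1 and PLT2 rose 2.22- and 2.31-fold. STM, which maintains the shoot meristem, was the member that fell, from 463, 400 and 421 to 188, 177 and 187 counts (log2 -1.22, SE 0.19, adjusted p = 4.62e-09). CLV3, a peptide of shoot stem cells, had 0 counts in all heart libraries and 4.79, 3.75 and 3.86 in bent seeds, which is too low for a useful fold.

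Of 21 mitosis and cytokinesis genes 3 rose and 3 fell (14.3% each, median log2 0.15). Over all genes tested 20.7% rose and 22.3% fell, so for a list of this size the counts lie near that background. CYCA2;3, an A-type cyclin, rose from 64.1, 71.9 and 88.8 to 245, 253 and 225 counts (log2 1.68, SE 0.15), while the kinase CDKB1;1 fell from 539, 547 and 452 to 286, 332 and 281 (log2 -0.77, SE 0.18), and KN, the syntaxin of the cell plate, had 2722 to 3258 and 2734 to 3000 counts and was not called. None of 14 DNA replication genes rose and 2 (14.3%) fell, CDC6 and MCM4 (log2 -0.67 and -0.40). CDC6 helps to load the replicative helicase, of which MCM4 is a subunit. CYCB1;3 (log2 -0.77), CDC6 and MCM4 each lost the call in at least 1 alternative. Genes described as histones were lower in 9 (20.9%) and higher in 1 (2.3%) of 43, near the share of all genes for the falls. This list was taken by words and counts LEC1, which is not a core histone, among those that fell. Cytosolic and organellar ribosomal protein genes were higher in 31 (9.5%) and lower in 25 (7.6%) of 327.

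The endosperm genes went both ways, 5 higher and 5 lower of 12 (41.7% each, against 20.7% and 22.3% of all genes tested). Without heart replicate 1 or without bent replicate 1 only 3 were lower, near the share of all genes for a list of this size. FWA, an imprinted gene, fell from 622, 589 and 655 to 53.7, 81.5 and 72.3 counts (log2 -3.17, SE 0.30, adjusted p = 2.28e-24), and FIS2, a Polycomb subunit, from 98, 49.9 and 81.3 to 13.4, 23.4 and 18.3 (log2 -2.05, adjusted p = 3.25e-06). MEA, an imprinted partner of FIS2 in the Polycomb complex, rose from 101, 112 and 114 to 190, 139 and 204 counts (log2 0.71, SE 0.22, adjusted p = 0.00504). MINI3, a regulator of endosperm growth, had 19.2, 7.61 and 31.8 counts in heart and 0 in all bent libraries. PHE1, a MADS-box gene expressed from the paternal copy, had 426, 316 and 357 counts in heart and 1.92, 81.5 and 21.2 in bent seeds, and the spread of the bent libraries left its call in 1 of 6 leave-outs only. EPR1, an extensin-like wall protein of the endosperm, rose from 9630, 10834 and 8909 to 105322, 70579 and 86722 counts, 8.94-fold (log2 3.16, SE 0.57, adjusted p = 2.44e-07). ALE1, a protease needed for the embryo's cuticle, rose 2.34-fold. ZOU, a regulator of endosperm breakdown, had 462 to 554 and 582 to 618 counts and was not called.

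Flavonoid genes, which make the tannins of the inner seed coat, had the lowest median of the 21 lists, with 14 of 17 lower and 1 higher (median log2 -1.50). TT4, chalcone synthase and the entry to the pathway, had 20022, 13154 and 17518 counts in heart and 2200, 3204 and 2828 in bent seeds (log2 -2.62, SE 0.19, adjusted p = 6.67e-41). TT12, which carries tannin precursors into the vacuole, fell from 313, 130 and 313 to 3.83, 7.49 and 12.5 counts (log2 -4.99, SE 0.53), and TT19, a glutathione transferase for the same transport, from 4099, 3464 and 3731 to 722, 1019 and 1028 (log2 -2.03, SE 0.22). BAN, which makes the tannin monomer, fell to a ratio of 0.397. The regulator TT8 rose (log2 0.47, adjusted p = 2.3e-05), and TT10, a laccase that browns the tannins, had 13637 to 17885 and 22358 to 22797 counts (adjusted p = 0.0903).

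Of the mucilage genes 5 of 21 were higher and 5 lower (23.8% each, near the 20.7% and 22.3% of all genes tested; median log2 -0.11). GATL5, a glycosyltransferase that shapes the size of mucilage pectin, had 2959, 3039 and 2542 counts in heart and 8174, 8893 and 6984 in bent seeds (log2 1.49, SE 0.23, adjusted p = 7.41e-10), and MUCI10, which decorates mucilage galactoglucomannan, rose from 1229, 1378 and 1195 to 2279, 2291 and 2201 (log2 0.83, SE 0.14). BXL1, which trims arabinan, fell from 9860, 11674 and 10888 to 5509, 6790 and 6161 counts (log2 -0.81, SE 0.19). MUM4, which supplies rhamnose, had 7917 to 8964 counts in heart and 9823 to 13226 in bent seeds and was not called (adjusted p = 0.161).

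The genes named for their falls, chosen among those with a mean of at least 500 counts and no overlap between the stages, included several of the cell wall and of secreted proteins. EXPA21, an expansin that loosens walls, had 1131, 525 and 2038 counts in heart and 0, 10.3 and 0.964 in bent seeds (log2 -8.36, SE 1.99, adjusted p = 0.000138), and its tandem neighbour EXPA23 fell from 1786, 991 and 3149 to 1.92, 43.1 and 5.78. These 2 copies are similar, and their sum was 155-fold lower. PRP2, a proline-rich wall protein, fell from 4164, 2275 and 4244 to 14.4, 38.4 and 31.8 counts (log2 -6.98, SE 0.60), and LP1, a lipid transfer protein of surface cells, from 5708, 3377 and 4478 to 51.8, 99.2 and 105 (log2 -5.73, SE 0.26, adjusted p = 1.23e-102). The defensin-like gene AT5G55132, the inhibitor gene AT5G46960, the hydrolase gene AT5G47350, the gibberellin-regulated gene AT2G30810 and the terpene cyclase gene AT3G14520 fell by between 5.90 and 6.78 on the log2 scale. In each of these 9 genes heart replicate 2 was the lowest of the heart libraries.

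Hormone genes were measured for 3 pathways. For abscisic acid 3 of 12 genes rose (25.0%) and 4 fell (33.3%), near the 20.7% and 22.3% of all genes tested. NCED6, a synthesis enzyme of the endosperm, rose from 196, 194 and 164 to 532, 435 and 467 counts (log2 1.37, SE 0.15), and the breakdown genes CYP707A1 and CYP707A4 fell to ratios of 0.516 and 0.179. NCED9, the other seed isoform, had 475, 651 and 522 counts in heart and 1002, 1360 and 1139 in bent seeds without overlap, yet was not called (log2 1.09, SE 0.55, adjusted p = 0.0982). For gibberellin 6 of 16 genes rose and 7 fell. The synthesis genes GA20OX3 and GA3OX4 rose from 2408, 2969 and 2542 to 7336, 7472 and 7171 counts and from 199, 169 and 152 to 552, 519 and 543 counts (log2 1.47 and 1.63), and GA2OX2, which inactivates the hormone, fell from 295, 228 and 329 to 99.7, 115 and 132 (log2 -1.30, SE 0.18). For auxin 5 of 11 rose and 4 fell. TAA1, YUC1, YUC4 and YUC10, which make it, rose 2.23-, 3.44-, 4.55- and 2.68-fold, and YUC6 fell (log2 -0.83, adjusted p = 9.26e-06).

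Of the 24 heat shock genes tested 1 was higher (HSP26.5) and 1 lower (HSFA3) in bent seeds at 27 °C (median log2 -0.18). At 23 °C 12 rose and 1 fell (median log2 0.72), or 9 and 1 without heart replicate 1, and at 25 °C 5 rose and 2 fell (median log2 0.21). Tested directly, the change was more negative at 27 °C than at 23 °C for 5 of the 24 and than at 25 °C for 1, and more positive for none. Over all genes tested 29.3% rose and 29.6% fell at 23 °C, and 27.0% and 30.8% at 25 °C. The list lay below both shares at 25 °C, with 20.8% higher and 8.3% lower. More negative differences made up 20.8% of the list against 23 °C and 4.2% against 25 °C, beside 8.97% and 6.52% of all genes. The chaperones HSP101 and HSP70 had 1759 to 2050 and 5745 to 7023 counts in heart and 1501 to 2248 and 5867 to 7954 in bent seeds. At the level of shares, the list held 0.148% of counts in heart and 0.133% in bent seeds at 27 °C, against 0.0318% and 0.0431% at 23 °C and 0.0325% and 0.0381% at 25 °C. Pollen genes, which should come only from flower remains, were measured as a check: their summed counts were 322 to 467 in heart and 126 to 243 in bent seeds at 27 °C, 2 of 6 fell, and PPME1 was at or near 0. Their part in the results was not tested.

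**Figure D2:**
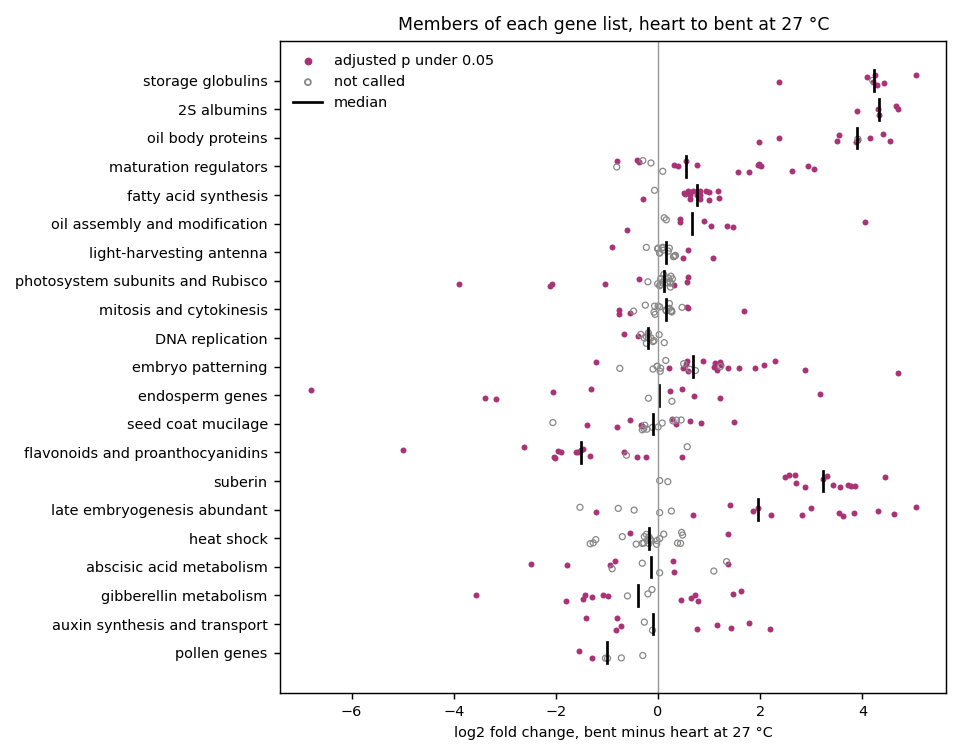
Log2 fold change from heart to bent seeds at 27 °C for the tested genes of each of the 21 lists, with called genes filled, other genes open and a bar at the median of each list. The medians of the storage, oil body and suberin lists lay between 3.22 and 4.32, that of the flavonoid list at -1.50, and those of the antenna, photosystem and heat shock lists near 0.

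The next question was how this step compared with the same step in cooler seeds. From heart to bent, 6277 genes (29.3%) rose and 6341 (29.6%) fell at 23 °C, and 5787 (27.0%) rose and 6595 (30.8%) fell at 25 °C. Without heart replicate 1 at 23 °C these were 6054 (28.2%) and 6019 (28.1%). The median size of the change over all genes, in log2 units, was 0.27 at 27 °C against 0.42 and 0.39 at 23 °C and 25 °C. The changes themselves ran in parallel, with r = 0.823 and rho = 0.780 against 23 °C and r = 0.821 and rho = 0.811 against 25 °C across 21445 genes, which are not independent replicates. These comparisons share no library, although all were scaled and fitted together.

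The difference between the changes was tested directly (interaction of stage and temperature). Stage was known from the labels only, and whether seeds of a stage had the same developmental age at each temperature was not tested. An interaction therefore cannot tell a difference in developmental age at sampling from an effect of temperature at a matched stage. The change was more positive at 27 °C than at 23 °C for 1261 genes (6.0% of 21022) and more negative for 1886 (8.97%). Without heart replicate 1 at 23 °C it was more positive for 1348 (6.41%) and more negative for 2162 (10.3%). With library totals as the scale the balance turned, to 1186 more positive and 1105 more negative. Against 25 °C the change was more positive for 1014 genes (4.73%) and more negative for 1398 (6.52%). Both tests, which share the 27 °C libraries, called 749 genes (3.56%) more positive and 1045 (4.97%) more negative. Of these 1045 genes 601 rose at 27 °C all the same, 94 fell and 350 were not called. Of the 749 genes 274 rose, 248 fell and 227 were not called.

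**Figure D3:**
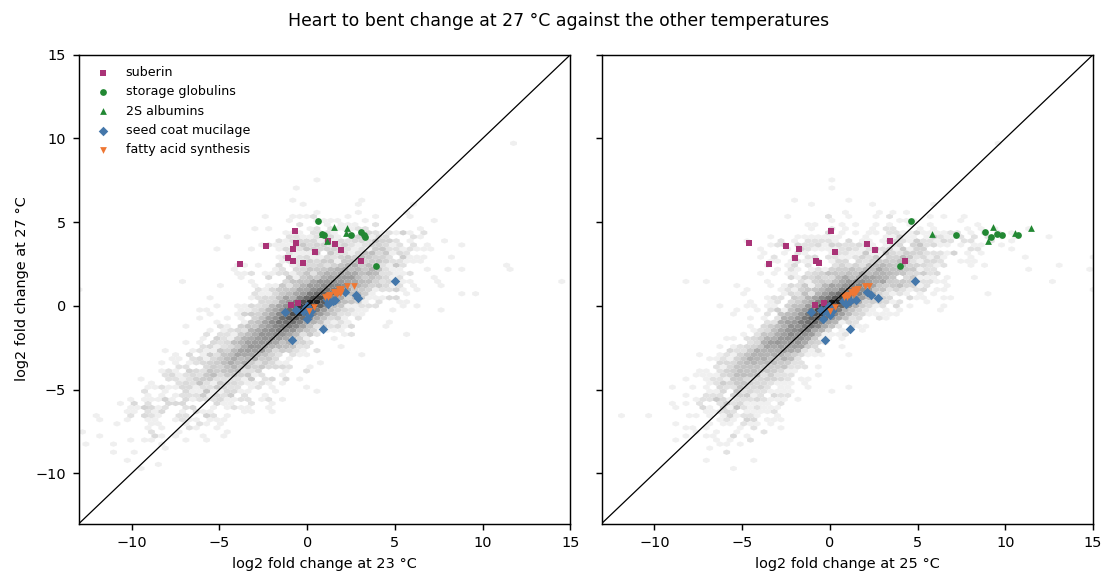
Log2 fold change from heart to bent seeds at 27 °C against that at 23 °C (left) and 25 °C (right) for all genes tested (grey, darker where more genes lie, values beyond the limits of an axis drawn at its edge), with members of 5 lists in colour and the line of equal change in black. Of the 15 suberin genes 14, all but MYB107, lay above the line in both panels, and mucilage and fatty acid genes mostly below it.

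The suberin genes, with a large joint rise at 27 °C, were compared first. At 23 °C 3 of the 15 rose and 4 fell (median log2 -0.65) and at 25 °C 4 rose and 6 fell (median log2 -0.59), whereas 13 rose at 27 °C. The median at 23 °C rested on heart replicate 1, without which 4 rose and 3 fell (median log2 -0.03). The change was more positive at 27 °C than at 23 °C for 13 genes and than at 25 °C for 11, and more negative for none and 1. Without heart replicate 1 at 23 °C the first count was 10, and without bent replicate 3 at 27 °C the second was 7. The values of MYB9 show the pattern: heart seeds had 69.5, 30.4 and 23 counts at 23 °C and 24.6, 30.2 and 32.1 at 25 °C, and bent seeds 53, 18.2 and 6.03 and 0.886, 0.894 and 1.8. At 27 °C alone all bent libraries lay above all heart libraries (differences of the log2 changes 4.44, SE 0.73, adjusted p = 1.59e-07, and 8.39, SE 1.02, adjusted p = 7.92e-14). Without heart replicate 1 at 23 °C the change of MYB9 at 23 °C was -0.03 and the first difference 3.82 (adjusted p = 7.06e-06).

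ASFT had 451, 260 and 249 counts in heart and 664, 351 and 281 in bent seeds at 23 °C, with overlap, and 298, 302 and 193 against 601, 233 and 153 at 25 °C. Its change was larger at 27 °C by 2.79 (SE 0.60, adjusted p = 0.000121) and 2.90 (SE 0.60, adjusted p = 5.88e-05). CYP86A1 fell at the cooler temperatures, from 85.1, 26 and 23 to 1.86, 18.2 and 6.03 counts at 23 °C (log2 -2.35, adjusted p = 0.00211). At 25 °C it fell from 36.5, 39.1 and 26.9 to 3.54, 8.94 and 5.39. Not all members differed: KCS20 was called against 23 °C only. MYB107 rose at all 3 temperatures (log2 3.06 at 23 °C and 4.30 at 25 °C), and its change was more negative at 27 °C than at 25 °C (-1.60, SE 0.51, adjusted p = 0.0188). ABCG2 was called in neither test, and ABCG20 in the test against 23 °C only, where the value depended on heart replicate 1, with 322 counts against 21.5 and 20.4 (2.69 with it and 0.16 without).

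**Figure D4:**
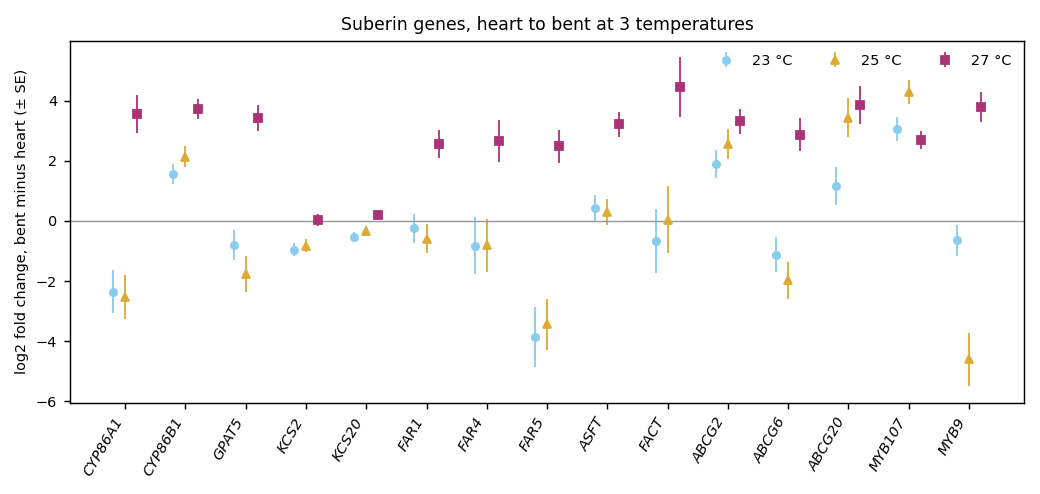
Log2 fold change from heart to bent seeds (with SE) of the 15 suberin genes at each of the 3 temperatures, 3 libraries per group. At 27 °C 13 genes rose, and CYP86A1, FAR5 and KCS2 were among those that fell at both cooler temperatures.

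Outside the lists, several genes that rose at 27 °C were named for their large difference against 23 °C, so that difference is a description of them. AT2G22510, a hydroxyproline-rich protein gene, had 241, 47.4 and 28.3 counts in heart and 76.3, 48.9 and 10.9 in bent seeds at 23 °C, and 145, 249 and 170 against 2540, 1312 and 2706 at 27 °C (difference of the log2 changes 4.75, SE 0.91, adjusted p = 1.03e-05). Without heart replicate 1 at 23 °C this difference was 3.27 (adjusted p = 0.000283). The esterase gene AT5G37690 and the membrane protein gene AT5G44550 rose at 27 °C by 3.71 and 3.59 and were not called at 23 °C. Their differences against 23 °C were 5.62 and 5.12, and 3.99 and 3.20 without heart replicate 1 at 23 °C (adjusted p = 0.00829 and 0.021). At 25 °C both fell in the main test (log2 -3.54 and -2.77) at low counts, from at most 20.4 and 20.5 in heart to at most 2.69 and 3.54 in bent seeds. These falls were not called by edgeR (adjusted p = 0.226 and 0.278), nor was the difference of AT5G44550 against 25 °C (adjusted p = 0.0516). AT3G04170 was listed at 0 in all heart and bent libraries at 25 °C, and had 109, 1.79 and 0.885 counts in heart and 146, 24.9 and 1.21 in bent seeds at 23 °C. Its difference of 6.84 against 23 °C rested on heart replicate 1 at 23 °C, without which it was 2.05 (adjusted p = 0.501). The lipid-transfer protein gene AT1G05450, named for its rise, had a difference of 3.54 against 23 °C that was 1.30 without the same library (adjusted p = 0.368), and edgeR did not call its difference against 25 °C (adjusted p = 0.155).

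For many storage and oil body genes the rise was smaller at 27 °C than at 25 °C in the main test. The change was more negative at 27 °C than at 25 °C for 5 of 8 globulins, 4 of 5 albumins and 7 of 10 oil body genes, whereas edgeR called 2, 2 and 4. CRU3, PAP85, SESA4, OLEO1 and ATS1 were among those edgeR did not call (adjusted p = 0.0909, 0.101, 0.123, 0.0782 and 0.15), and PAP85 and ATS1 kept the call in 6 and 1 of 12 fits without 1 library. SESA3, which both tests called, had 11.9, 1.78 and 0 counts in heart seeds at 25 °C and 1332, 2273 and 1294 at 27 °C, and 21887, 8192 and 9170 against 54949, 24767 and 43483 in bent seeds. Against 23 °C the answer depended on heart replicate 1, in which SESA3 had 18236 counts against 247 and 133 in its replicates. With this library the globulins were more positive in 3 and more negative in 1 of 8 (median 1.54; edgeR 1 and 1), and without it more negative in 5 and more positive in none (median -2.72). For the albumins the counts were 1 more positive and none more negative with it, and none and 3 without it (medians 2.76 and -2.05). For the oil body genes 1 was more negative with it and 8 without it (medians -0.67 and -2.70).

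Most fatty acid synthesis genes rose at every temperature, but by less at 27 °C, with 17 of 18 more negative than at 23 °C and 6 of 18 more negative than at 25 °C. The second count ranged from 1 (without heart replicate 2 at 27 °C) to 16 (library totals as the scale). BCCP2 had 1592, 979 and 1512 counts in heart and 6624, 6974 and 12144 in bent seeds at 23 °C. All heart values at 27 °C lay above these and all bent values below (difference -1.47, SE 0.26, adjusted p = 7.49e-07). Antenna genes were more negative in 9 of 18 and photosystem and Rubisco genes in 15 of 25 cases against 23 °C. Against 25 °C they were so in 2 of each list (8 and 14 with library totals as the scale). In the main test those 2 made up 11.1% and 8.0% of the lists, near the 6.52% of all genes tested. Against 23 °C the share of all genes was 8.97%. The antenna count against 23 °C was 4 without bent replicate 3 at 23 °C or by edgeR, and 3 without bent replicate 3 at 27 °C.

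Of the 19 maturation regulators 8 had a more negative change at 27 °C in each comparison, and none a more positive one. FUS3 had 419, 175 and 343 counts in heart seeds at 23 °C and 317, 204 and 302 at 25 °C, below the 814 to 1025 at 27 °C, while bent seeds had 2598, 2779 and 4129 and 3526, 2805 and 3274 (differences -1.36, SE 0.31, adjusted p = 0.000322, and -1.56, SE 0.31, adjusted p = 2.51e-05). NF-YB6 and EEL differed in the same way (-1.46 and -1.80 against 23 °C). GA3OX4 had 17.4 to 59.1 counts in heart seeds at the cooler temperatures and 152 to 199 at 27 °C, and its change was smaller by 2.33 and 2.63.

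In the mucilage list 12 of 21 genes were more negative at 27 °C than at 23 °C and 11 than at 25 °C, with 1 more positive in each. GATL5 had 320, 313 and 344 counts in heart seeds at 23 °C, 330, 325 and 310 at 25 °C and 2959, 3039 and 2542 at 27 °C, whereas bent seeds had 7110, 8368 and 15593, then 9130, 9701 and 9127, and 8174, 8893 and 6984 (differences -3.50, SE 0.33, adjusted p = 9.31e-24, and -3.36, SE 0.33, adjusted p = 5.93e-22). MUM4 had 1828 to 4205 counts in the cooler heart seeds and 7917 to 8964 at 27 °C (difference -2.46 against 23 °C, adjusted p = 4.1e-09).

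The genes named for the most negative differences had few or no counts in cooler heart seeds. Whether the heart seeds at 27 °C were of a later developmental age than the cooler ones was not tested. RLP55, a receptor-like protein gene on chromosome 5 (18563333 to 18564921), had 0.915, 0 and 0 counts in heart seeds at 23 °C and 0.849, 0 and 1.73 at 25 °C, but 1620, 1467 and 1242 at 27 °C. In bent seeds it had 5784, 6884 and 9778, then 6122, 6773 and 5946, and 4131, 4894 and 3325 counts. Against a floor of 3 counts per library the rise was at least 2613-fold at 23 °C and at least 2379-fold at 25 °C, and it was log2 1.51 (SE 0.31, adjusted p = 6.09e-06) at 27 °C. AT1G62070, an uncharacterised gene, had 28.4, 0.895 and 7.08 counts in heart seeds at 23 °C, at most 1.7 at 25 °C and 5144, 4912 and 4431 at 27 °C, and rose at least 10567-fold at 25 °C but by log2 2.26 at 27 °C.

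AT5G05020, a gene of the pollen Ole e 1 allergen and extensin family, and GH9B15, a glycosyl hydrolase gene, had the same form. AT5G05020 had at most 2.74 counts in cooler heart seeds and 806, 1046 and 851 at 27 °C, with rises of at least 849-fold at 23 °C, at least 1014-fold at 25 °C and log2 2.40 at 27 °C. GH9B15 had at most 2.66 counts in cooler heart seeds and 211, 169 and 163 at 27 °C, with rises of at least 251-fold, at least 281-fold and log2 2.22. FLA5, a fasciclin-like arabinogalactan protein of the wall, had 3.58 to 7.08 counts in heart seeds at 23 °C, 3.56 to 9.53 at 25 °C and 1326, 1352 and 1160 at 27 °C. Its bent values were 3685, 3122 and 5715 at 23 °C and 1712, 2588 and 1849 at 27 °C (difference -8.84, SE 0.49, adjusted p = 8.02e-69). The summed counts of the pollen genes in heart seeds were 1278 to 3143 at 23 °C, 406 to 1880 at 25 °C and 322 to 467 at 27 °C, and their part in these values was not tested.

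**Figure D5:**
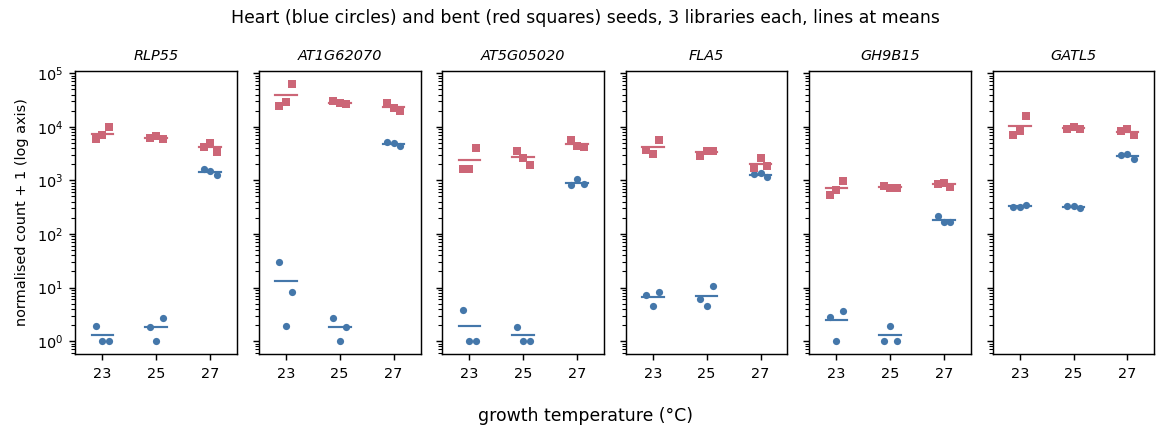
Normalised count plus 1 on a log axis of 6 genes in heart (blue circles) and bent (red squares) seeds at the 3 temperatures, 3 libraries per group with lines at the means. Heart values at 27 °C lay far above those at 23 °C and 25 °C, with 1242 to 1620 counts of RLP55 against at most 1.73, while bent values differed much less.

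A fall that was smaller at 27 °C than at both other temperatures was called for 248 of the 4770 genes that fell. LP1 had 12233, 13256 and 9230 counts in heart seeds at 23 °C and 3377 to 5708 at 27 °C, and 53.1 to 99.5 against 51.8 to 105 in bent seeds (difference 1.44, SE 0.37, adjusted p = 0.00181). PRP4, a proline-rich protein, and AT5G47350 also fell less (1.82 and 3.21 against 23 °C), although PRP4 was not called against 25 °C by edgeR (adjusted p = 0.0738) and kept that call in 7 of 12 fits without 1 library. AT3G14520 fell more at 27 °C than at 25 °C (difference -2.16, adjusted p = 0.00456). CYP96A2, a cytochrome P450 gene, had 349, 1165 and 1164 counts in heart seeds at 23 °C and 202, 77 and 261 at 27 °C. It was at 0 in bent seeds at 23 °C and 25 °C, falls of at least 312-fold and at least 266-fold, and at 0, 0.936 and 4.82 counts at 27 °C. Its differences of 5.65 and 5.51 were not called by edgeR (adjusted p = 0.291 and 0.352) nor without bent replicate 3 at 27 °C. TT4 fell alike at all 3 temperatures (log2 -2.59, -2.86 and -2.62), with differences of -0.03 (SE 0.27) and 0.24 (SE 0.27) that were not called, and the flavonoid list was more positive in 3 and more negative in 2 of 17 genes in each comparison. Without heart replicate 1 at 23 °C 7 flavonoid genes were more positive.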

How the data were processed

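RNA of whole seeds was sequenced as short single-end reads. The authors assigned the reads to Araport11 transcripts with Salmon, which divides ambiguous reads among transcripts by likelihood, and deposited its estimated counts for every transcript of every library, neither normalised nor pooled. Whether counting used the strand is not given in the sources used here, so overlapping and antisense genes cannot be separated, and near-identical copies are uncertain. The 48268 transcripts were summed to 27587 loci and rounded to whole numbers; names and positions came from RefSeq (TAIR10.1), which held 27392 (99.3%). All value columns belonged to the 27 libraries, leaving 0 unused, and 0 rows named no gene.

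Differential expression was tested with DESeq2 1.42.0 (R 4.3.3), the tool of the study, in 1 fit of 9 groups and 27 libraries with median-of-ratios size factors, on 21445 genes that reached 10 counts in 3 or more libraries. Adjusted p-values (Benjamini-Hochberg over all genes, two-sided) are from DESeq2 unless edgeR 4.0.16 is named, and genes under 0.05 were called. The fit gave no p to the genes with an outlying library. Interactions compared the change from heart to bent between temperatures. Shares of counts were compared by an exact two-sided permutation test (scipy 1.17.1). Only the DESeq2 test of bent against heart at 27 °C was tried on simulated counts, not the interactions or the other steps. Where no library of a group exceeded 3 counts, the group was set to that floor, and folds against it are lower bounds. Counts carry no molecular identifiers, so floors cover counting error only.

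The study names the libraries biological replicates. The members, the 21 gene lists (349 loci) and the naming rule were chosen with earlier results of these data known. Ribosomal protein and histone genes were taken by words in the gene description, so the histone list also held LEC1. The rule named 85 genes. It took the 10 called genes per direction with the largest change at 27 °C (mean count at least 500, no overlap of the replicates), the 3 called genes per list with the largest change (mean count at least 100) with LEC1, LEC2, FUS3, ABI3 and WRI1, and the 5 genes per direction with the largest difference against 23 °C among those called in both interactions with the same sign (mean count at least 200). Other members given with values were picked after their values were seen. Alternatives were edgeR, TMM factors, library totals, other filters on low counts, a fold threshold, the replicate block, the 6 libraries alone and each library left out. The joint leaving-out of 2 libraries was chosen after seeing the data.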

Additional observations from a re-analysis of the deposited data

Results flagged for a closer look

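For 29 of the 85 named genes the change from heart to bent at 27 °C differed from that at 23 °C and from that at 25 °C, in the same direction and at an adjusted p under 0.05 in both interaction tests of DESeq2. Such genes made up 3.56% (more positive) and 4.97% (more negative) of all genes tested, and several were named because they differed. The values here are the change at 27 °C minus the change at 23 °C in log2 units.

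Of the genes with a more positive change at 27 °C, the suberin genes MYB9 and FACT had 4.44 and 5.12, the lipid-transfer protein gene AT1G05450 3.54, the glycoprotein gene AT2G22510 4.75, the esterase gene AT5G37690 5.62, the membrane protein gene AT5G44550 5.12 and the cupin gene AT3G04170 6.84. These 7 rose at 27 °C. Without heart replicate 1 at 23 °C the values of AT1G05450 and AT3G04170 were 1.30 and 2.05 and no longer called (adjusted p = 0.368 and 0.501). In LP1 (1.44), PRP4 (1.82), AT5G47350 (3.21) and CYP96A2 (5.65) the change was a fall that was smaller at 27 °C. Against 25 °C edgeR did not call AT1G05450, AT3G04170, AT5G44550, PRP4 or CYP96A2 (adjusted p = 0.155, 1, 0.0516, 0.0738 and 0.352), and PRP4 kept that call in 7 and AT3G04170 in 1 of 12 fits with 1 library left out. FACT was not called by edgeR against 23 °C (adjusted p = 0.251) or 25 °C (0.534), and it kept its call against 25 °C in only 3 of the 12 fits made without 1 of the libraries.

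Of the genes with a more negative change, RLP55 had -12.99, AT1G62070 -9.39, AT5G05020 -9.0, FLA5 -8.84 and GH9B15 -6.69. The fitted values of RLP55, AT5G05020 and GH9B15 depend on how a group at or near 0 counts is treated and are no bounds on the size of the difference. The mucilage genes GATL5 and MUCI10 had -3.50 and -1.33 and the endosperm gene EPR1 -2.37, which kept its call in 7 of 12 fits with 1 library left out and was not called by edgeR (adjusted p = 0.0628). Without heart replicate 1 at 23 °C the value of EPR1 was -4.36 (adjusted p = 3.27e-25). The regulators EEL, NF-YB6 and FUS3 had -1.80, -1.46 and -1.36. The fatty acid synthesis genes BCCP2, ACP1 and FAB1 had -1.47, -1.11 and -0.80, and FAB1 lost its call against 25 °C in each of the 12 fits. The antenna gene CAB3 had -1.08 and kept its call against 25 °C in 8 of 12 fits. The gibberellin genes GA3OX4, GA20OX3 and GA2OX2 had -2.33, -1.39 and -1.16; the last of these fell at 27 °C and was not called at 23 °C, and its difference against 25 °C was kept in 4 of 12 fits and not called by edgeR (adjusted p = 0.0506).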

How the results depend on the processing

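Over the alternatives tried, the counts of genes called among all genes tested stayed within 1.5 times the reported ones, with these exceptions. Counts within single gene lists moved more in several cases, as given with those lists. A threshold of at least 1 on the log2 scale left 1551 genes higher and 2278 lower in bent seeds at 27 °C, fewer by construction. Library totals as the scale gave 1105 genes with a more negative change at 27 °C than at 23 °C; the cause was not tested. Leaving out 1 library gave 3664 to 4030 higher and 3933 to 4336 lower genes at 27 °C, 907 to 1455 more positive and 1384 to 2502 more negative against 23 °C, and 707 to 1005 and 1022 to 1399 against 25 °C. Leaving out replicate 2 of both groups at 27 °C together gave 3664 and 3885, and leaving out heart replicate 1 and bent replicate 3 at 23 °C together gave 1238 and 1887. edgeR called 4633 higher and 4551 lower genes, and the 6 libraries alone 4611 and 4858. The difference in the share of counts, bent minus heart, was 0.655 to 0.894 percentage points for globulins, 0.42 to 0.593 for albumins, 0.276 to 0.36 for oil body genes and 0.105 to 0.149 for suberin genes with 1 library left out.

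Libraries of the same replicate number did not deviate together at 27 °C (r = -0.132, -0.255 and -0.068). The values were 0.141, -0.015 and 0.202 at 23 °C, and 0.16, 0.089 and 0.015 at 25 °C, weak though mostly positive. The numbers were not taken as pairs at any temperature. With a replicate block 4272 genes were higher and 4528 lower at 27 °C, 1149 and 1803 differed from 23 °C and 976 and 1359 from 25 °C.

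Of the 85 named genes 9 lost their call at 27 °C in some alternative (AAO3, CDC6, CYCB1;3, FLA5, HSFA3, LEC1, MCM4, PHE1 and WRI1). Of the 10 genes named for their interaction, AT3G04170 and CYP96A2 lost it against 23 °C, and these and AT5G44550 against 25 °C. The mucilage list, with 5 higher and 5 lower genes, had 8 and 10 when the 6 libraries were fitted alone. With 3 libraries per group, small changes of genes with few counts may have been missed at this depth.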

Other observations

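Genes of mitosis and cytokinesis, which were 3 higher and 3 lower of 21 at 27 °C, were 16 higher and 1 lower at 23 °C and 14 higher and 1 lower at 25 °C (medians 0.15, 0.77 and 0.63 on the log2 scale). The change was more negative at 27 °C than at 23 °C for 6 of the 21 (28.6%), or for 13 (61.9%) without heart replicate 1 at 23 °C. Against 25 °C it was more negative for 2 (9.5%). Over all genes tested these shares were 8.97%, 10.3% and 6.52%, so the count against 25 °C lay near that of all genes. CDC20.1, an activator of the anaphase-promoting complex, had 2277, 2427 and 2064 counts in heart and 2489, 2740 and 2653 in bent seeds at 27 °C, and 2171, 1519 and 2055 against 2917, 3309 and 3400 at 25 °C. Its interaction was not called in either comparison (adjusted p = 0.132 and 0.369). The 14 DNA replication genes showed no called difference in either comparison.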
